A study of Equus caballus with 9 samples.

Results

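The genes described here are the 200 whose mRNA level varied least across 9 cultures of horse tenocytes of 3 origins. The deposited table holds 21689 gene identifiers, of which 13462 passed a filter on low counts. Of those, 6506 had a mean between 20 and 500 CPM (read counts relative to the library total, scaled between libraries by the trimmed mean of M-values, TMM). The 200 with the lowest coefficient of variation (CV, the SD divided by the mean, here in percent) over the 9 libraries were kept. The values that chose these genes are the values given here, so their small spread and their small differences between origins are a description. No conclusion is drawn from a test on them. All 200 passed the filter on low counts, since the choice required it.

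Tenocytes are the fibroblast-like cells that make and maintain the collagen matrix of tendon. The study set tenocytes derived from embryonic stem cells (ESCs) beside fetal and adult tenocytes, with 3 independent lines of each. The ESC-derived lines were at passage 18 to 22 and were differentiated for 14 days without feeder cells or leukaemia inhibitory factor, in medium with 15% serum and 20 ng/ml of the growth factor TGF-β3. Before that, they had been kept on inactivated mouse embryonic fibroblasts. The fetal lines came from gestation days 319, 320 and 321 and the adult lines from horses of 2 to 6 years. Both of these, called primary lines here, were at passage 3 to 7 in high-glucose medium with 10% serum, and no TGF-β3 is given for them. Between ESC-derived and primary lines, origin, passage, medium and TGF-β3 cannot be told apart. Library totals ran from 20166692 to 23767643 counts.

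In every cell, a set of genes serves needs that do not depend on tissue: transcription, splicing, protein synthesis and turnover, membrane traffic and energy supply. Such housekeeping genes tend to vary less between cell types than genes of specialised function. Genes of even level are the usual reference against which others are measured, by quantitative PCR for example, and scaling methods such as TMM rest on most genes not changing. Whether the 200 genes belong to these classes was not examined, because 0 of the 21689 identifiers, and 0 of the 200, could be matched to a gene name in the RefSeq table used here. For the same reason the tenocyte label of the cultures was not checked against marker genes. Genes are given by identifier.

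The gene of lowest spread was ENSECAG00000021146. Its level was 85.0, 87.0 and 84.7 CPM in ESC-derived replicates 1, 2 and 3. In the fetal lines it was 86.3, 78.4 and 80.7 CPM, and in the adult lines 80.0, 86.2 and 82.9 CPM. The 3 groups overlapped, and the highest library was 1.11 times the lowest. The CV was 3.73%, around a mean of 83.5 CPM. Group means were 85.6 ± 1.26, 81.8 ± 4.08 and 83.1 ± 3.11 CPM in ESC-derived, fetal and adult lines (SD, n = 3 each).

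ENSECAG00000024122 came next, at a higher level. It stood at 137.6, 122.3 and 139.2 CPM in the ESC-derived lines, 132.8, 128.6 and 131.7 CPM in the fetal lines, and 136.8, 125.8 and 123.2 CPM in the adult lines. Here too the groups overlapped, and the ESC-derived lines held both the lowest and the highest value. Its CV was 4.81% and its mean 130.9 CPM. The ratio of the first gene to the second ran from 0.585 to 0.712 over the 9 libraries, with an SD of 0.09 on the log2 scale. That ratio does not depend on how libraries are scaled. The second gene holds fractional counts, so some of its reads may also match another gene.

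The limit of the choice fell within a run of nearly equal genes. ENSECAG00000010766, the last gene inside, had a CV of 9.36%. It was at 33.4, 35.9 and 35.9 CPM in ESC-derived lines, against 40.9, 43.7 and 41.0 CPM in fetal and 43.8, 37.6 and 37.9 CPM in adult lines. All 3 ESC-derived values of this gene lay below all 6 primary values. ENSECAG00000000817, the first gene outside, had a CV of 9.37%. Its levels were 68.8, 75.1 and 68.4 CPM in ESC-derived, 86.3, 78.7 and 84.5 CPM in fetal and 76.0, 87.9 and 73.1 CPM in adult lines. For this gene 1 adult value lay below the highest ESC-derived value. CVs rose without a step from 9.25% in the tenth gene before the limit to 9.47% in the tenth after it.

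**Figure D1:**
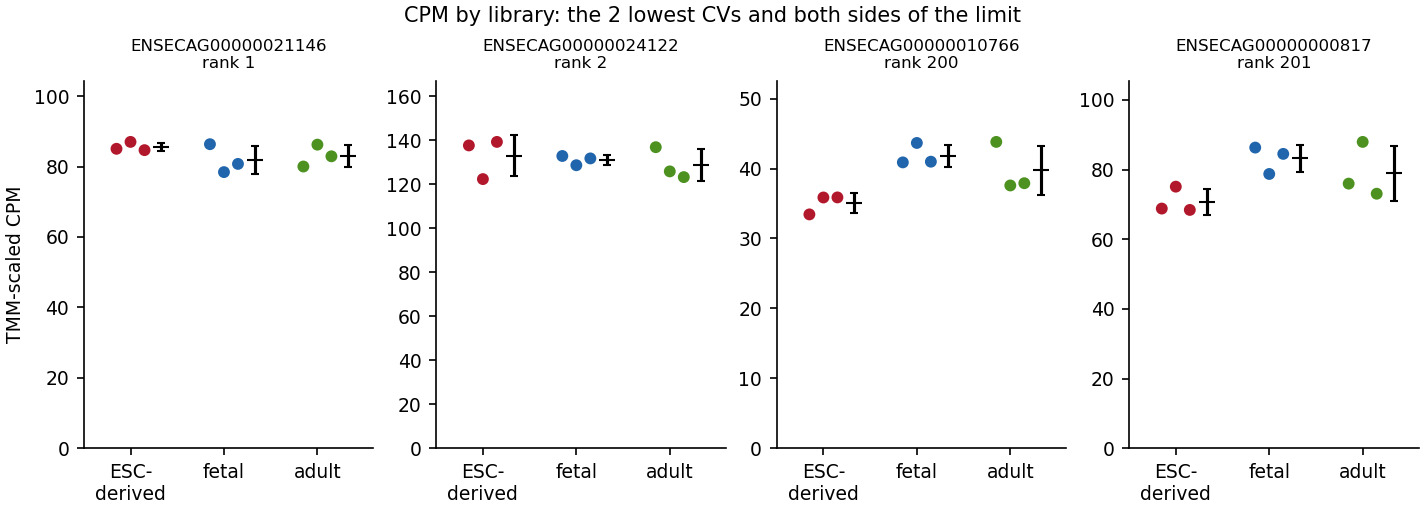
TMM-scaled CPM (vertical axes, each starting at 0) of the genes with the 2 lowest CVs and of the last inside and first outside the limit, with 1 point per library in the 3 groups and the group mean ± SD beside the points (n = 3). The groups overlap at ranks 1 and 2, whereas at rank 200 the 3 ESC-derived points, 33.4 to 35.9 CPM, lie below the 6 primary ones.

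Over the 200 genes the CV ran from 3.73% to 9.36%, with a median of 8.17%. The other 6306 genes of the same CPM range had a median CV of 31.4%. The 10 genes of lowest spread lay between 3.73% and 5.48%, and the next 40 between 5.52% and 7.26%. At ranks 500 and 1000 the CV had risen to 11.8% and 14.7%. The highest library exceeded the lowest by 1.11 to 1.41 times in the stably expressed genes, with a median ratio of 1.27, against a median of 2.49 in the other genes. In 21 of the 200 genes all 9 libraries lay within 10% of the gene's mean. In 132 they lay within 15%, and in 194 within 20%. Of the other 6306 genes this held for 0 at 10%, 28 at 15% and 306 at 20%. The largest deviation of any library in any of the 200 genes was 21.2%.

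The stably expressed genes were spread over the whole range of levels. Their mean CPM ran from 20.9 to 468.7 with a median of 53.7, close to the median of 50.1 over all 6506 genes of the range. By level, 95 lay at 20 to 50 CPM, 67 at 50 to 100, 26 at 100 to 200 and 12 at 200 to 500 CPM. These were 2.92%, 3.55%, 3.00% and 2.37% of the genes of each class. No library held fewer than 353 counts of any of the 200 genes, and the highest count was 13057. Counting error alone corresponds to a CV of 0.993% to 4.70% in them, so that its share of the squared CV had a median of 14.1% and reached 68.4%. In the 10 genes of lowest spread that median was 33.6%. Depth therefore limits how low a CV can be seen at the lower end of the range, where the median counting CV was 4.24% at 20 to 50 CPM. Apart from this, 508 of the other 6306 genes had a counting CV above 9.36% because of low counts in some libraries. Their mean was at least 20 CPM, so their level was uneven between libraries. This counting error assumes independent molecules, and reads copied by PCR would make it larger. Fractional counts, which can arise where a read matches more than 1 gene, occurred in 61 of the 200 genes (30.5%) and in 1836 of the other 6306 (29.1%).

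**Figure D2:**
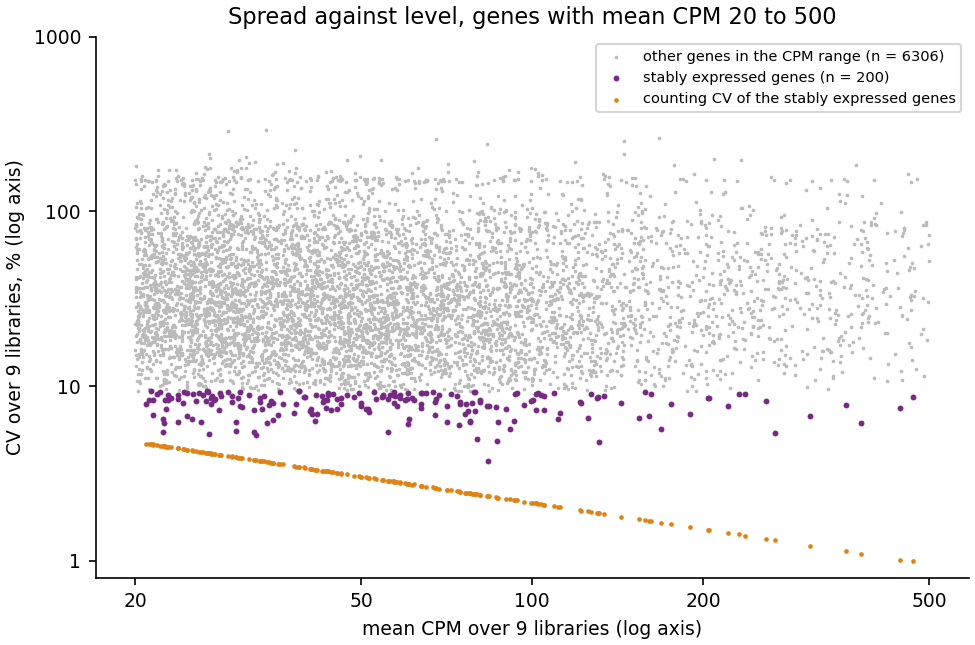
CV over the 9 libraries in percent against mean CPM, both on log axes, for the 200 stably expressed genes, the other 6306 genes of the CPM range, and, as the lowest band, the CV that counting error alone would give the 200 genes. The 200 genes fill the lower edge at all levels, between 3.73% and 9.36%, and lie above the counting band, which falls from 4.70% to 0.993%.

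Among the 3 origins the 200 genes differed by small amounts in all directions. The highest group mean exceeded the lowest by 1.004 to 1.2 times, with a median of 1.09, against a median of 1.76 in the other genes of the range. The highest group mean was in the ESC-derived lines for 76 genes (38%), in fetal lines for 57 (28.5%) and in adult lines for 67 (33.5%). Of all genes tested these shares were 46.1%, 26.7% and 27.2%. The lowest was in ESC-derived lines for 77 (38.5%), in fetal lines for 70 (35%) and in adult lines for 53 (26.5%). Of all genes tested these were 47.6%, 25.1% and 27.3%. The ESC-derived mean exceeded the mean of the 6 primary libraries in 97 genes (48.5%) and was below it in 103. It was higher in 49% of all genes tested, so the near-even split is not particular to the 200 genes. The log2 ratio of these means ran from -0.23 to 0.23, with a median of -0.01. In bulk cultures, fewer cells with a transcript and less of it per cell cannot be told apart.

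Differences between groups held a median of 24.8% of the variance of a stably expressed gene. Group means take 2 of the 8 degrees of freedom, which is 25%. The rule chose on the total variance, differences between groups included, so nothing is concluded from how near these values lie. In the other genes of the range the median was 72.3%. In 34 of the 200 genes the share exceeded 50%, and the highest was 83.4%. Within groups the 200 genes had a median CV of 6.18% among ESC-derived, 6.87% among fetal and 7.93% among adult lines. The corresponding medians of the other genes were 14.0%, 16.0% and 17.2%.

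By edgeR's quasi-likelihood test over all 13462 genes, 0 of the 200 differed between ESC-derived and adult lines at a Benjamini-Hochberg adjusted p under 0.05, where 58.3% of all genes tested did. Of the 200, 0 also differed between ESC-derived and fetal lines, where 57.8% of all genes tested did. Neither count is a result about the 200 genes, since the rule kept genes with small differences. In both comparisons 0 of the 200 had an unadjusted p under 0.05, beside 63.2% (adult) and 62.7% (fetal) of all genes tested. Limma-voom called 0 of the 200 in both, and 59.3% and 59.2% of all genes, whereas DESeq2 called 3 against adult lines (61.7% of all genes tested) and 2 against fetal lines (61.3%). Their absolute log2 fold changes had a median of 0.08 and a highest value of 0.26 in each of these comparisons, beside medians of 0.91 and 0.89 over all genes tested. The standard errors of these fold changes ran from 0.11 to 0.16. They belong to the edgeR fit and do not rest on each gene's own replicates alone. For ENSECAG00000021146 the value was 0.11 between ESC-derived and adult lines. Its group SDs there were 1.26 and 3.11 CPM, around means of 85.6 and 83.1 CPM. The fitted difference was over 1.1-fold in 50 of the 200 genes between ESC-derived and adult lines, beside 90.6% of all genes tested. Between ESC-derived and fetal lines it was over 1.1-fold in 42, beside 90.5% of all. It was over 1.25-fold in 0 of the 200 in either comparison, beside 78.5% and 78.3% of all genes. The ESC-derived libraries serve both comparisons.

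Between fetal and adult lines 0 of the 200 were called by edgeR, limma-voom or DESeq2, and 0 had an unadjusted p under 0.05. Here too the rule had kept genes with small differences, so these counts are not a result about the 200 genes. In this comparison 0% of all genes tested were called by edgeR (0 of 13462, with 581 at an unadjusted p under 0.05), 0 by limma-voom and 53 by DESeq2. The median absolute log2 fold change was 0.06 in the 200 genes and 0.17 over all genes, and the highest of the 200 was 0.22.

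In some of the 200 genes libraries of different groups did not overlap, within the narrow range of these genes. In 9 of them the 3 ESC-derived libraries lay apart from all 6 primary libraries, against 59.6% of all genes tested. Of these, 4 were higher in the ESC-derived lines (29% of all genes tested), by 1.09 to 1.17 times in group mean. The other 5 were lower (30.6% of all), at 0.853 to 0.901 times the primary mean. Libraries did not overlap between ESC-derived and adult lines in 20 of the 200 genes (66.6% of all genes tested). Between ESC-derived and fetal lines they did not overlap in 29 (67.4% of all). Between fetal and adult lines this held for 16 (7.13% of all). The rule used these libraries, so nothing is read from these counts.

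Single libraries took part unequally. The library farthest from a gene's mean was adult replicate 3 in 39 of the 200 genes, fetal replicate 2 in 28, and each of the others in 16 to 22. Adult replicate 3 was below the gene's mean in most of the 200, since 57 lay above it, and adult replicate 2 was above the mean in 140. The median deviation was -4.13% in adult replicate 3 and 3.30% in adult replicate 2, and between -2.14% and 1.73% in the other 7 libraries. In the other 6306 genes it was ESC-derived replicate 3 that was most often farthest, in 1684. The median absolute deviation of a library was 4.20% to 5.94% in the 200 genes, with means of 5.30% ± 0.233 for ESC-derived, 5.05% ± 0.742 for fetal and 5.28% ± 0.573 for adult lines (SD, n = 3 each). In the other genes it was 33.2% ± 1.34, 19.8% ± 0.825 and 20.9% ± 4.13 (SD, n = 3 each).

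**Figure D3:**
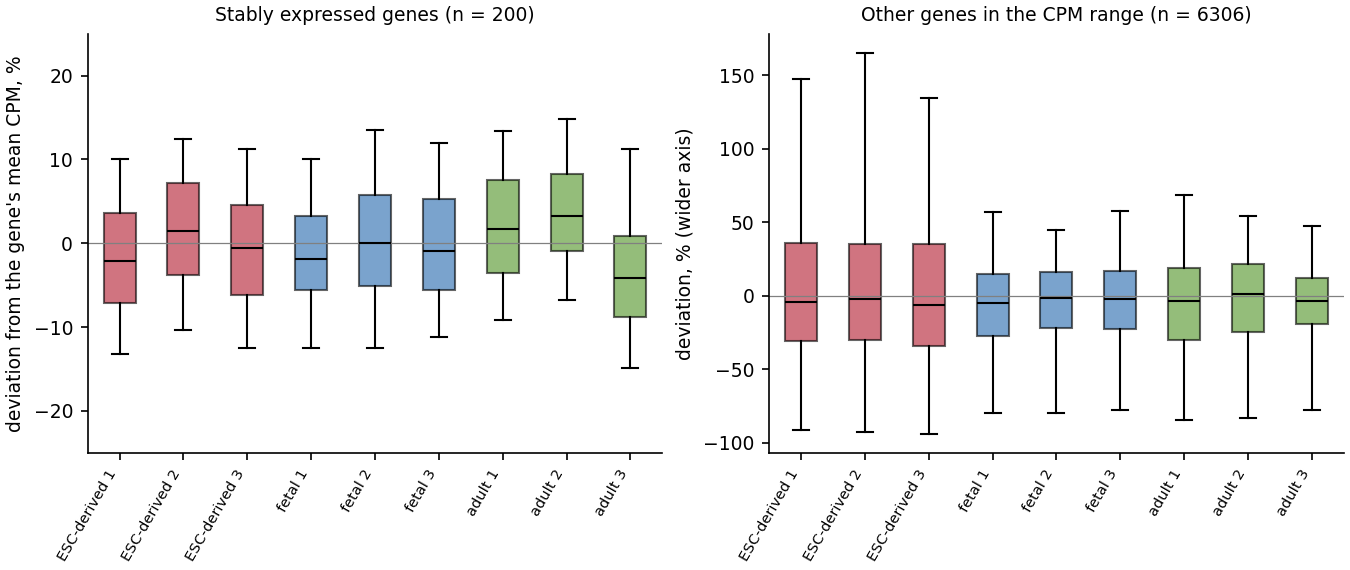
Deviation of each library from the gene's mean CPM in percent, for the 200 stably expressed genes (left) and the other 6306 genes of the CPM range (right, wider axis). Boxes span the 25th to 75th percentile with the median as a line, and whiskers reach the 5th and 95th percentiles. At left the medians lie between -4.13% and 3.30%, with adult replicate 3 lowest.

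Seen through the 200 genes, libraries of different origin were about as close as libraries of the same origin. The root mean square log2 difference between ESC-derived and adult libraries had a median of 0.17 over 9 pairs, and 0.17 between ESC-derived and fetal libraries. Between fetal and adult libraries it was 0.15. Within groups it was 0.14 among ESC-derived, 0.16 among fetal and 0.18 among adult lines, over 3 pairs each. Over the other genes of the range the same measure was 2.59, 2.48 and 0.60 between groups and 0.57, 0.50 and 0.63 within them. The choice of genes fixes this contrast. Ratios between 2 genes of a library do not depend on its scaling. For a stably expressed gene the log2 ratio to the other 199 had a mean SD of 0.12 to 0.18, with a median of 0.16. For the other genes of the range, set against the same 200, the median was 0.48. The choice of genes fixes this contrast as well.

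Stability was also read in libraries that did not enter the CV used to choose. The rule was applied to 8 libraries at a time and the genes it found were read in the library left out. The TMM scale remained that of all 9 libraries, so the library left out had a part in the scaling. These lists held 144 to 169 of the 200 genes. In the library left out, their median absolute log2 deviation from the mean of the other 8 was 0.10 to 0.17, a 1.07- to 1.12-fold difference. Over all genes of the CPM range it was 0.25 to 0.56. Of the 200 genes chosen each time, 167 to 188 lay within 1.25-fold in the library left out. The median deviation was lowest in fetal replicate 1 and highest in adult replicate 3, where the chosen genes also had a median shift of -0.11. In the 3 ESC-derived libraries the medians were 0.12, 0.14 and 0.15, beside 0.52, 0.50 and 0.56 over all genes of the range. Other lines of the same origin remained among the 8 libraries used to choose.

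**Figure D4:**
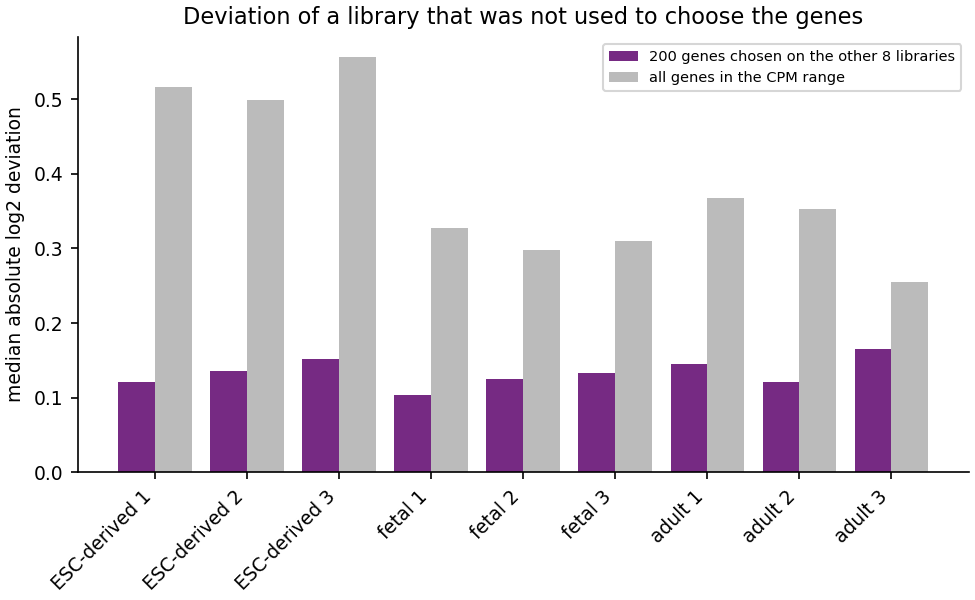
Median absolute log2 deviation of each library from the mean of the other 8, for the 200 genes chosen on those 8 and for all genes of the CPM range. The chosen genes lie at 0.10 to 0.17 in all 9 libraries, below the 0.25 to 0.56 of all genes.

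Genes were also chosen on some origins and read in the others. When the rule was applied to the 6 primary libraries, the 200 genes had CVs up to 6.16%, and 46 of them were among the 200 chosen on all 9. The ESC-derived lines did not enter the CV used for that choice, though the TMM scale was that of all 9 libraries. In them, 141 of these 200 (70.5%) had a mean within 1.5-fold of the primary mean and 179 (89.5%) within 2-fold. Over all genes of the CPM range these shares were 47.5% and 67.5%. Of the 21 beyond 2-fold, 8 were higher and 13 lower in the ESC-derived lines, and the largest log2 difference was 7.00. When the rule was applied to the 3 ESC-derived libraries, 112 of 200 genes (56%) lay within 1.5-fold in fetal lines and 116 (58%) in adult lines. Over all genes of the range these shares were 45.3% and 45.9%. In fetal lines 42 of the 200 lay beyond 2-fold, 10 higher and 32 lower, with a largest log2 difference of 6.97. In adult lines 44 did, 13 higher and 31 lower, with a largest of 7.99. That list shared 20 genes with the 200 chosen on all 9.

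Choosing on 1 origin also allowed a test in the other 2, fitted on those 6 libraries alone. Of 200 genes chosen on the fetal lines, 91 (45.5%) differed between ESC-derived and adult lines, 32 higher and 59 lower in ESC-derived lines (edgeR, adjusted p under 0.05). This compares with 55.5% of all genes tested and 53.8% of those in the CPM range. Of 200 genes chosen on the adult lines, 94 (47.0%) differed between ESC-derived and fetal lines, 35 higher and 59 lower, where 57.8% of all genes tested and 56.6% of those in the range did. These lists had CVs up to 2.86% and 3.5% in the 3 lines used, and held 22 and 30 of the 200 genes stable over all 9 libraries. Of the genes chosen on the ESC-derived lines, 198 were tested between fetal and adult lines and 0 were called by edgeR, with 2 at an unadjusted p under 0.05. In that fit 0.00799% of all genes tested were called, with 431 of 12516 at an unadjusted p under 0.05.

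Relative to all counts of a library, the level of the 200 genes was higher in every ESC-derived line than in the primary lines. Before scaling, their share of an ESC-derived library was 1.69% ± 0.0949. It was 1.40% ± 0.0851 of a fetal and 1.36% ± 0.0785 of an adult one (SD, n = 3 each). The 3 ESC-derived libraries, at 1.61% to 1.79%, lay above the 6 primary ones, at 1.29% to 1.46%. After TMM scaling the summed level was 14732 ± 180.3 CPM for ESC-derived, 14694 ± 118 CPM for fetal and 14865 ± 633 CPM for adult lines (SD, n = 3 each). TMM factors were 1.08 to 1.23 in ESC-derived and 0.863 to 1.02 in primary libraries, and they carry this difference. With total counts alone as the scale, all 200 genes had a higher mean in ESC-derived than in primary lines, by 0.07 to 0.52 on the log2 scale with a median of 0.29. On that scale the median of all tested genes shifted likewise, to 0.28 from -0.02 under TMM. Their CVs then had a median of 14.1% and a highest value of 21.2%. In 97 of the 200 the ESC-derived libraries then lay above every primary library, where 36.5% of all genes tested did. Under TMM these were 4 of the 200 and 29% of all genes. On that scale edgeR called 56 of the 200 between ESC-derived and adult lines, where it called 58.8% of all genes tested. Between ESC-derived and fetal lines it called 41 of the 200 and 56.9% of all genes tested. The 200 genes were chosen on the TMM scale, and a change of scale moves all genes of a library alike, so these shifts do not single out the 200 genes. Which scale is nearer to the amount of RNA per cell was not tested. Under RLE scaling their CVs had a median of 8.11% and a highest value of 10.6%.

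**Figure D5:**
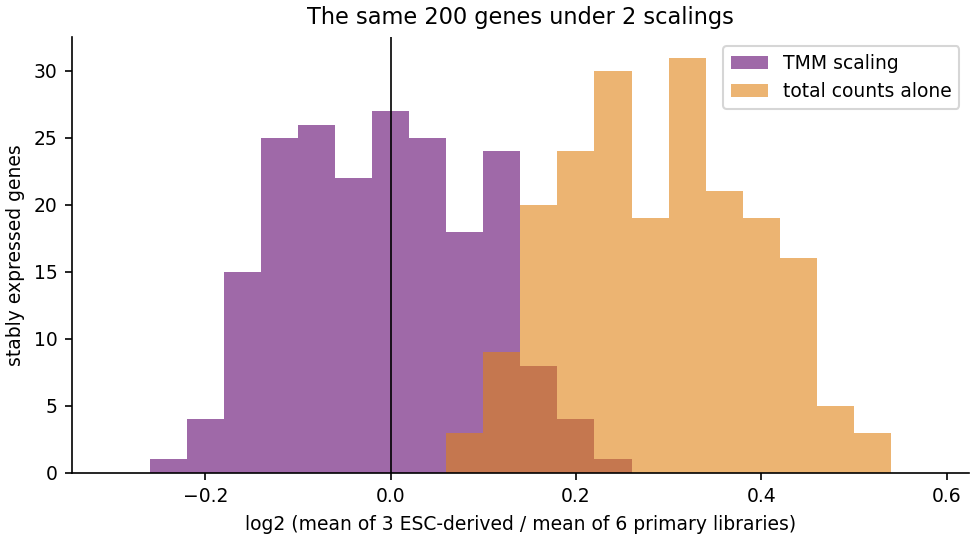
Number of the 200 stably expressed genes by the log2 ratio of the mean of 3 ESC-derived to the mean of 6 primary libraries, under TMM scaling and under total counts alone. The distribution centres at -0.01 under TMM and at 0.29 under total counts, where all 200 ratios are above 0.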

How the data were processed

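RNA of 9 cultures was read as pairs of 100 bases from stranded mRNA libraries, per the labels' protocols. The authors deposited estimated counts by gene, 1 column per library. Per the submitters' processing notes, the authors used FastQC, Salmon and R 3.5.2. Salmon settings, genome build and annotation, not given in the sources used here, decide how reads are shared between genes.

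Counts were rounded to whole numbers, filtered with filterByExpr (3 groups) and scaled by TMM in edgeR 4.0.16 under R 4.3.3. The 200 genes of lowest CV at a mean of 20 to 500 CPM were taken. One quasi-likelihood fit (glmQLFit, glmQLFTest) covered all 9 libraries, with Benjamini-Hochberg adjustment over 13462 genes. Counting CV is the root of the mean of 1 over the count. Distances were taken on log2 CPM (prior count 2). The procedure was also run on simulated counts, with changes planted only in the adult group and a set of genes planted with little spread. The outcome is not used here, and that run does not bear on the choice of scale. Genes chosen on fewer libraries were chosen and read on the TMM scale of all 9. Exceptions were the fits of 6 libraries and the choices for which scaling is given as redone.

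Alternatives were RLE, upper quartile and total-count scaling, other filters, other measures of spread, other CPM ranges, DESeq2 1.42.0, limma 3.58.1 with voom, a test beyond 2-fold, fits of 6 libraries, and leaving out each library. Scaling by the 200 genes, mean SD of log2 ratios, leaving out genes with fractional counts, thinning, leaving out libraries from the choice on primary lines, and the choices on 1 origin read in fits of 6 libraries were added after seeing the data.

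The genes and all lists were chosen with earlier results of these data known. The rule for named genes, with no gene names matched, gave the 2 identifiers of lowest CV and those on both sides of the limit. Of 31 gene lists, 0 could be run, since 0 identifiers were matched to a name. No sequence is shown.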

Additional observations from a re-analysis of the deposited data

How the results depend on the processing

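Of 23 other ways to choose, RLE scaling kept 174 of the 200 genes, dropping the filter 185, asking for 5 CPM in 3 libraries 189, thinning 192, the SD of log2 CPM 188, the ratio of highest to lowest library 169, the CV less counting variance 189, a range of 10 to 1000 CPM 177 and the mean SD of log2 ratios 151. Fewer were kept by upper quartile scaling (115), MAD over median (81), and total counts alone (21); the cause was not tested. A range of 50 to 500 CPM kept 105, since it removes the 95 genes under 50 CPM. Leaving out genes with fractional counts kept 121. It removes 61 of the 200, and the cause of the other losses was not tested. Without those genes the last CV rose to 9.85%. Leaving out each library in turn, with scaling redone on the other 8, kept 138 to 168 genes, fewest without ESC-derived replicate 3, with a last CV of 8.79% to 9.38%.

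For the 200 genes, edgeR calls in the comparisons of ESC-derived lines with adult and fetal ones rose from 0 and 0 to 56 and 41 under total counts, and DESeq2 called 3 and 2; the cause was not tested. The other settings, including the 9 fits without 1 library, gave 0. Over all genes, total counts moved the calls higher in ESC-derived lines from 48.5% to 61.9% (adult) and from 48.2% to 59.8% (fetal). The test beyond 2-fold gave 4027 and 3974 calls in place of 7843 and 7780, as it asks for more. Leaving out libraries gave 6785 to 8040 and 6683 to 8121. Scaling by the 200 genes gave 7808 and 7791. Between fetal and adult lines DESeq2 called 53, the fit of 6 libraries 1, and fits without 1 library 0 to 1.

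The deviation in a library left out, 0.13 in the median, was 0.13 under RLE and 0.12 under total counts. Of genes chosen on primary lines, 129 to 142 lay within 1.5-fold in ESC-derived lines when 1 library was left out, 138 under RLE and 133 under total counts. No paired analysis was run, because the groups were independent lines and no pairing between them is given. Depth limits the lowest CV that can be seen at 20 to 50 CPM, where the median counting CV was 4.24%.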

Other observations

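Total counts chose another set of genes. Of the 200 genes with the lowest CV under total counts, 21 were among the 200 chosen under TMM, and their CVs also ended near 9%, at 9.31%. Read on the TMM scale, 0 of those 200 had a higher mean in ESC-derived than in primary lines, with a median log2 ratio of -0.30 and CVs up to 19.4%. Read the other way, all 200 genes chosen under TMM were higher in ESC-derived lines on the scale of total counts, with a median of 0.29. Both go with the change of scale, under which the median log2 ratio of all genes tested moved from -0.02 under TMM to 0.28 under total counts. Which scale is nearer to the amount of RNA per cell was not tested. ENSECAG00000021146, first under TMM, stood at rank 782 under total counts, with a CV of 13.9%.

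Genes of lower CV were kept more often when a library was left out. Each such choice ranked genes by the CV of 8 of the same 9 libraries. Genes far inside the limit were therefore bound to be kept more often than genes near it. Nothing is concluded from this order. Leaving out each library in turn, 99 of the 200 genes were chosen all 9 times: each of the 10 at ranks 1 to 10, each of the 40 at ranks 11 to 50, 39 of 50 at ranks 51 to 100, 10 of 50 at ranks 101 to 150, and 0 of 50 at ranks 151 to 200. Under upper quartile scaling the same classes kept 10, 36, 29, 25 and 15 genes. Total counts alone ran the other way, with 0, 3, 4, 7 and 7 genes. Of the 200, 15 were chosen by all 22 alternatives other than total counts alone, ENSECAG00000021146 among them, and 0 by all 23. ENSECAG00000010766, the last gene inside, was chosen by 10.

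Scaling libraries by the median ratio over the 200 genes gave factors of 0.878 to 1.22, beside 0.863 to 1.23 by TMM. The genes had been chosen on the TMM scale. Calls between ESC-derived and adult lines were then 3780 higher and 4028 lower, beside 3804 and 4039 under TMM.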
